A study of Mus musculus with 4 samples.

Results

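Isolated CTCF peaks were selected by spacing alone: a peak was kept when its summit lay more than 150 kb from the neighbouring summit on both sides, on chromosomes 1 to 19, with the first and last peak of each chromosome left out. Of the 33820 peaks in the deposited list, 33075 lay on these chromosomes, 33037 could be kept by the rule, and 1007 were (3.05%). The cells were untreated wild-type (WT) neurons from the cortex of Swiss-Webster mice at embryonic day 16, kept in culture for 13 days, in a series about the DNA topoisomerase TOP2B. The labels list 2 biological replicates of the CTCF immunoprecipitation, with 2 inputs. The list is 1 joint set of peaks found in both replicates, with a −log10 p for each replicate and their sum, here called the strength. All of these are the authors' values, and the read depth behind them is unknown. Dissociated cortex can hold cells other than neurons, and a peak list gives no expression by which the labelled cell type could be checked.

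CTCF binds DNA through an array of zinc fingers that recognise a long, directional sequence. It halts the cohesin ring as cohesin extrudes chromatin, so that loops tend to form between a pair of sites facing each other, and it can shield a promoter from enhancers on the far side. In such loops a site acts together with a partner. No contact data were used here, so spacing cannot show whether a site has a partner. A site with no neighbouring peak over a long stretch is a sparse setting in which to observe CTCF. In mammalian genomes such stretches are mostly gene deserts and the interiors of very long genes, many of which are expressed in neurons.

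Sequence is shown first for members that sit on a promoter, since those are the isolated peaks that a promoter table can display. The 7 below are on the strands of their genes and run 5′ to 3′ over the 250 bases before a transcription start listed by RefSeq (GRCm38.p6). In each the summit of the isolated peak lies within the printed bases. The first 5 are the strongest members with the summit in such a stretch, at strengths of 768 to 981, and capitals mark each AGNNGGC, the last 7 letters of a CTCF core consensus, on either strand. In C1ql3 and Spef2 capitals mark instead the whole core, CCANNAGNNGGC, on either strand. The stretches are chr16:39984114-39984363 (Lsamp, plus strand), chr2:51149112-51149361 (Rnd3, minus), chr16:94997697-94997946 (Kcnj6, minus), chr16:85173708-85173957 (App, minus), chr13:34345219-34345468 (Slc22a23, minus), chr2:13010865-13011114 (C1ql3, minus) and chr15:9748869-9749118 (Spef2, minus).
Lsamp: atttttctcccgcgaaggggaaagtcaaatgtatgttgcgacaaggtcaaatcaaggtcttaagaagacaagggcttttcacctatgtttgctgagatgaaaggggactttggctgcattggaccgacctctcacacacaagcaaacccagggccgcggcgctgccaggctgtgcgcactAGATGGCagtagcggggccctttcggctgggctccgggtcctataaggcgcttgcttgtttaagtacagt
Rnd3: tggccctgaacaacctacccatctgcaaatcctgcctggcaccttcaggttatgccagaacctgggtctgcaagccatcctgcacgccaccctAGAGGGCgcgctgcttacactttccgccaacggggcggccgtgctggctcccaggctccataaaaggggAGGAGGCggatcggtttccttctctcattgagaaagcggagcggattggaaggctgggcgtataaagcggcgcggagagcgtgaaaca
Kcnj6: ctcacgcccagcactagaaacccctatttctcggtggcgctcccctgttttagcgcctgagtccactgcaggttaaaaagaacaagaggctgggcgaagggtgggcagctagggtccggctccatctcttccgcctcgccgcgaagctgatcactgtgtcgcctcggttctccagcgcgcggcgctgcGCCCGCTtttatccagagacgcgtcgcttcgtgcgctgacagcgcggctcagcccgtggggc
App: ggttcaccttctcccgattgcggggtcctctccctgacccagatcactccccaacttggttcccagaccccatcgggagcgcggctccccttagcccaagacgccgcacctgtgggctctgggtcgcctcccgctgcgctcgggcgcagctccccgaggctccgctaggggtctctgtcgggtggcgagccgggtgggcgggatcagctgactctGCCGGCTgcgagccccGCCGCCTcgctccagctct
Slc22a23: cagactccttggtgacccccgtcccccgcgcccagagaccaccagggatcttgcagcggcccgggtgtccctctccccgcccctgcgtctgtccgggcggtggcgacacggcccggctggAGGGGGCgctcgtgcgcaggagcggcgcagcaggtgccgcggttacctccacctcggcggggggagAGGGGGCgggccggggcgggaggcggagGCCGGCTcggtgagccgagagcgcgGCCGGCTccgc
C1ql3: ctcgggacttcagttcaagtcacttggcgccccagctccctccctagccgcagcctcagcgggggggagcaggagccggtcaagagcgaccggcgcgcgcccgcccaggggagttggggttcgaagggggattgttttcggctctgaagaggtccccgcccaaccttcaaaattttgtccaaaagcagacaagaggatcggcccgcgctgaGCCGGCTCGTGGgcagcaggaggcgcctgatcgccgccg
Spef2: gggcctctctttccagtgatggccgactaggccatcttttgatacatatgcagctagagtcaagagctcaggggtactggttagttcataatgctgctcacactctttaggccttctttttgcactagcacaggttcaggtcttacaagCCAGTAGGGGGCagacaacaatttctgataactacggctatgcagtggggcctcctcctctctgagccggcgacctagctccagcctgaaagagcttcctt

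The summit at Lsamp, which encodes a neuronal cell adhesion molecule, lay 11 bp from the centre of its capitalised match. At Rnd3, a gene of a small GTPase that acts on the cytoskeleton, the nearest match was 5 bp away, and at the potassium channel gene Kcnj6 it was 14 bp away. At App, the gene of the amyloid precursor protein, it was 85 bp away, and at C1ql3, which encodes a secreted synaptic organiser, the core match was centred 13.5 bp from the summit. These promoters were picked for a summit within the printed bases, which limits the distances, and distances expected by chance were not computed. Where the summit lay outside the 250 bases, the core was centred 534.5 bp away at Cpne8, 611.5 bp at Mast4 and 476.5 bp at Trpc4. Those of Sema3d and Gtf2h2 held no AGNNGGC, nor did those of Gulp1, whose summit lay inside. Over all 148 autosomal promoter windows of 300 bases (250 before and 50 after a start) that an isolated peak overlapped, 9 held the full core (6.08%, exact Clopper-Pearson 95% interval 2.82 to 11.2). The share was 5.48% of 6336 windows overlapped by another peak, 1.68% of 24881 windows without a peak and 2.47% of all 31365. The 7-letter end of the core stood in 76.4% of windows with an isolated peak, 76.7% of those with another peak and 59.7% of all. Windows with an isolated peak had a median GC content of 64.7%, against 63.3% with another peak and 50.7% without. Promoters under isolated peaks thus carried the core and GC in shares close to those under other peaks. A match is a description of letters and not a mapped binding site, and the sequence of peaks away from promoters was not analysed here.

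The isolation of the members ranged widely. The smaller of the 2 gaps beside a member had a median of 221342 bp and reached 1770 kb, and the larger gap had a median of 455982 bp. There were 300 members with a smaller gap over 300 kb, 111 over 500 kb and 14 over 1000 kb. The stretches between the outer neighbours of isolated peaks added up to 775 Mb, or 31.8% of the 2442 Mb that the chromosomes span from first to last gene or peak. All of these values follow from the spacing rule and are descriptions. The intervals below are exact at 95% and treat peaks as independent; they cover counting error only. With 1 condition and 1 joint list there is no test over samples.

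Among the isolated peaks, 544 (54.0%) had an isolated peak as a direct neighbour, and 76 runs held 3 or more. Of all peaks the rule could keep, 3.05% were isolated. Each direct neighbour of a member already has a gap over 150 kb on the shared side, so the rule itself raises the share of 54.0%. These counts are descriptions of spacing, and clustering was not tested. The longest run held 11, on chromosome 5 from 54439001 to 62707561 (8.27 Mb), and contained only 3 protein-coding genes: Pcdh7, a non-clustered protocadherin gene, G6pd2 and Arap2. Within it the peak in Pcdh7 stood above all others, at 813 and 687 in the replicate columns, given here and below in the order of the file. The other 10 had 8.31 to 43.6 in the first column and 52.2 to 323 in the second. Only the Pcdh7 peak was higher in the first column. Runs of 6 members lay around Pabpc4l and Pcdh18 on chromosome 3 and across a cluster of prolactin-family genes on chromosome 13. Another run of 6 went from inside the adhesion gene Cntn5 to higher coordinates on chromosome 9. On chromosome 14 a run of 6 came from lower coordinates and ended inside Pcdh9. Both are given without regard to the strand of the gene. A run of 7 on chromosome 12, from 45929065 to 48646651, held Nova1, a neuronal splicing factor gene, as its single protein-coding gene.

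**Figure D1:**
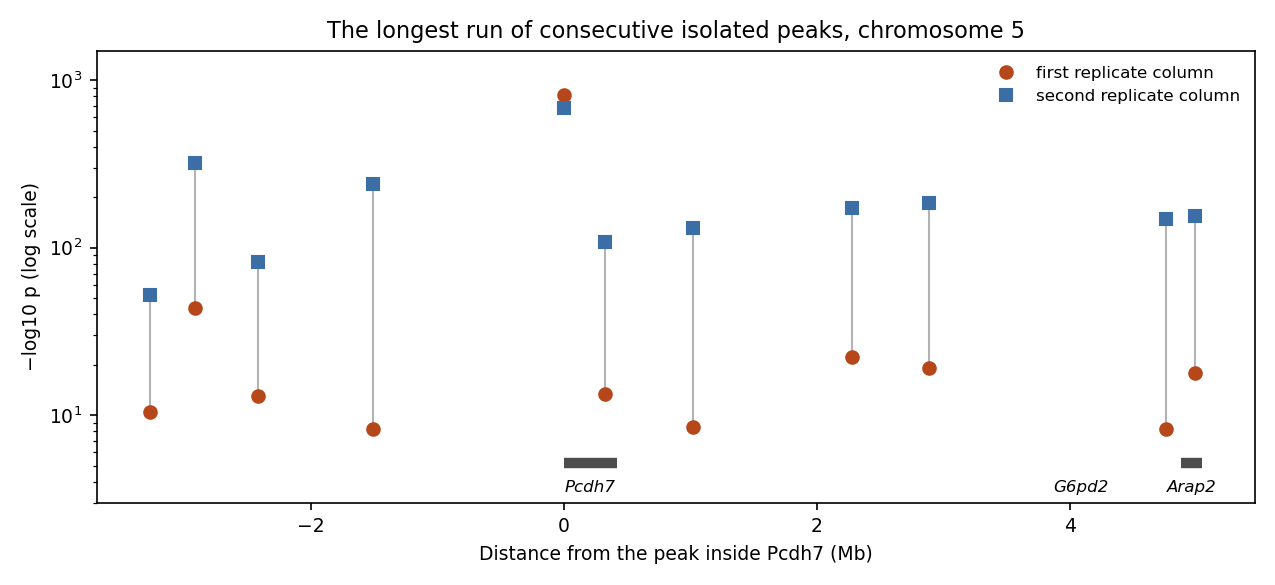
Each pair of points joined by a line is an isolated peak of the longest run, placed by its distance from the peak inside Pcdh7 in Mb, with the −log10 p of both replicate columns on a log axis; dark bars are the protein-coding genes. The Pcdh7 peak reaches 813 and 687, while the other 10 stay at or below 323.

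The 10 most solitary peaks lay at, inside or up to 1656 kb from protein-coding genes of several kinds. The peak with the largest smaller gap, at chromosome 1, 147222838 to 147223807, had its neighbours 2792 and 1770 kb away and lay 321 kb from Brinp3. Its values were 14.3 and 76.7. Another, at the start of Grm7, which encodes a metabotropic glutamate receptor (chromosome 6, 110645512 to 110646638), had its neighbours 1247 and 1119 kb away. Its values of 68.5 and 19.8 made it the member most tilted to the first column, at −1.79 on the log2 scale of second over first. At the start of Lrrtm4, which encodes a postsynaptic organiser, the peak (chromosome 6, 80018482 to 80019594) had 17.1 and 161, the opposite order, with neighbours 1119 and 1799 kb away. Each was the sole peak inside its gene, of 921882 and 791305 bp. The peak 3434 bp inside Cdh7, a cadherin gene (chromosome 1, 109985392 to 109986010), was also the sole peak of its gene and had 18.7 and 130. The strongest of these 10 by joint value, at chromosome 2, 99236389 to 99237532, had 42.7 and 517 and lay 1605 kb from Lrrc4c, the gene of a netrin-G ligand. The others were nearest to Cntnap5b, Pabpc4l, Pcdh10, Immp2l and the olfactory receptor gene Olfr1176, with strengths from 84.7 to 183.

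**Figure D2:**
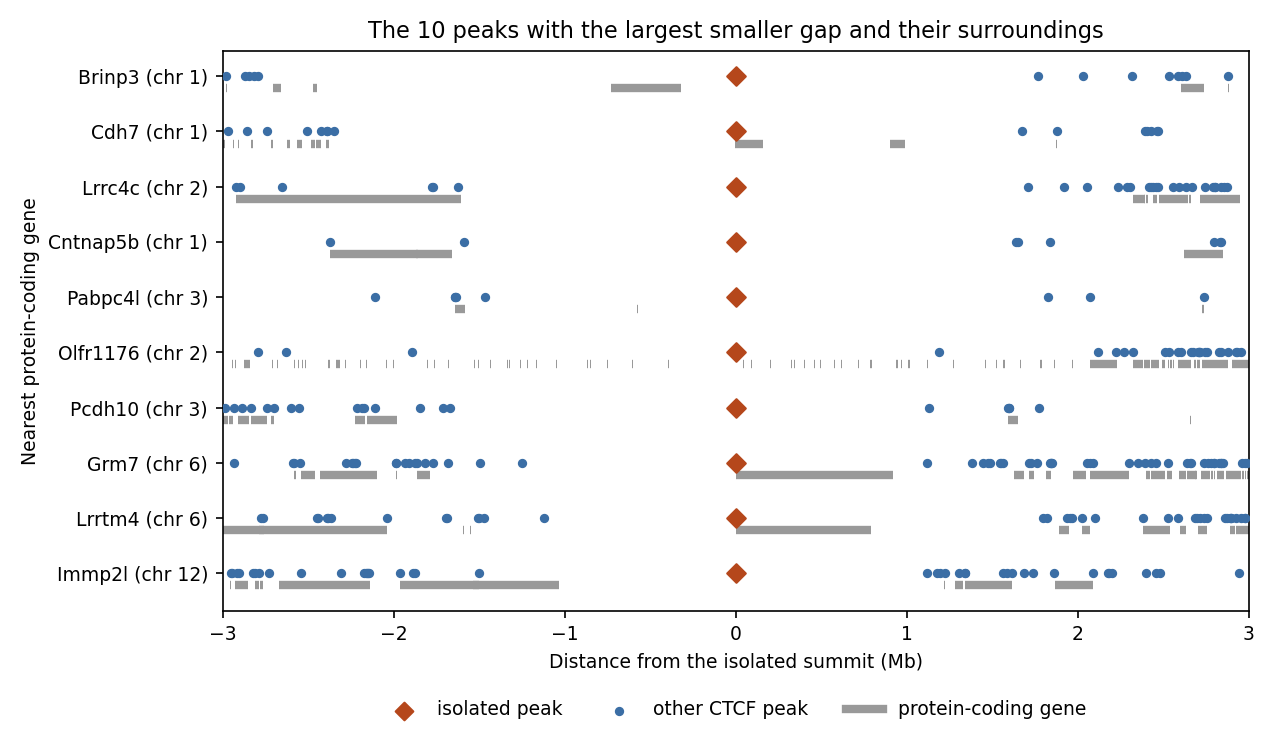
Each row is an isolated peak (diamond) with the other CTCF peaks (dots) and protein-coding genes (grey bars) within 3 Mb on either side, labelled by the nearest protein-coding gene. All 10 have an empty stretch of at least 1118 kb on both sides, and the row of Olfr1176 has many short genes within that stretch.

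Where the rule drew its line, values were mixed. The 5 members just inside it had smaller gaps of 150.0 to 150.7 kb and strengths of 43.0, 352, 119, 184 and 111. The 5 peaks just outside, with 149.7 to 149.9 kb, had strengths of 624, 42.5, 180, 327 and 145.

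Isolated peaks were taken from every autosome, from 1.54% of the peaks of chromosome 11 (39 of 2529, interval 1.10 to 2.10) to 4.69% of chromosome 18 (47 of 1003, interval 3.46 to 6.18). Chromosomes 3, 12 and 13 stood at 4.65%, 4.59% and 4.55%, and chromosomes 19 and 17 at 1.78% and 1.98%. Across the 19 chromosomes the share ran against the number of protein-coding genes per Mb (Spearman correlation −0.96, Pearson correlation −0.88, a description over chromosomes that share both libraries). Chromosome 11, with 13.2 genes per Mb, had the lowest share, and chromosome 12, with 5.66, the third highest.

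The surroundings of the members were gene-poor. No protein-coding gene lay within 150 kb of 416 isolated summits (41.3%, interval 38.2 to 44.4), against 2.70% of the 32030 other autosomal summits (interval 2.52 to 2.88). Another 396 (39.3%) had a single such gene, against 12%, and 48 (4.77%) had 5 or more, against 48.2%. The median distance to the nearest end of a protein-coding gene was 157770 bp (interval 118853 to 178628), against 9065 bp for the others, and 141 members (14%) lay more than 500 kb away, against 0.556%. The farthest member, at chromosome 18, 28077332 to 28078713, lay 2188 kb from the nearest protein-coding gene, Pik3c3. It was strong in both columns, at 321 and 423. Its fellow at 27836684 to 27837692, 2083 kb from Celf4, had 18.03 and 190.

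By class of summit, intergenic sequence held 525 of the 1007 members (52.1%, interval 49.0 to 55.3), against 28.9% of other autosomal peaks (28.4 to 29.4). Protein-coding genes, away from their ends, held 270 (26.8%, 24.1 to 29.7, against 44.3%). Ends of protein-coding genes, within 1 kb, held 106 (10.5%, 8.70 to 12.6, against 18.3%), and other genes also held 106 (10.5%, against 8.45%). Of those other genes, lncRNA genes took 87 summits (82.1%, against 85.9% among other peaks) and pseudogenes 10.

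The ends of genes at which isolated peaks sat were mostly their 5′ ends. With the strand taken from the promoter table, 78 of 106 lay at a 5′ end (73.6%, interval 64.1 to 81.7), 4 at a 3′ end (3.77%, 1.04 to 9.38) and 24 at a gene with no single strand there. Among other peaks at gene ends 65.0% were at a 5′ end (63.7 to 66.2) and 14.9% at a 3′ end (13.96 to 15.8). Ebf1, the gene of a transcription factor of neural and B cell development, had the strongest of the 4 at a 3′ end, with 135 and 451.

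Strength was lower among isolated peaks, and relative to its level the first replicate column was lower by more than the second. In the first the median was 19.7 (interval 18.4 to 20.97), from 7.29 to 900, against 32.2 in the other autosomal peaks (31.4 to 32.2), which is 38.9% lower. In the second column it was 117 (110 to 125), from 17.1 to 1280, against 132 (129 to 133), or 11.1% lower. The joint medians were 143 (134 to 151) and 169 (167 to 172). The first column was lower in isolated peaks on all 19 chromosomes, and the second on 15. The exceptions were chromosomes 3, 5, 10 and 11, where the second column was higher in isolated peaks (138 against 133 on chromosome 3).

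By joint strength the shift was a lack of strong peaks rather than a surplus of the weakest. When all autosomal peaks were cut into 4 equal groups by strength, the strongest group held 130 members (12.9%) and the weakest 240 (23.8%), with 345 (34.3%) and 292 (29.0%) between. The first column was lower at the weak end too, with a lower quartile of 12.2 against 17.1 in the other peaks. In it 32.3% of members stood above the autosomal median, against 50.5%. The second column had a lower quartile of 62.5 against 58.0. The IDR program measures how reproducibly a peak ranks in both replicates, and 126 members (12.5%, interval 10.5 to 14.7) stood at its cap, against 25.6% of other peaks (25.1 to 26.1). At a global IDR of 0.01 or better stood 71.6%, against 77.8%. The Spearman correlation between the columns was 0.481 over the 1007 members and 0.657 over the others, a description only, since all peaks were selected for agreement.

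Along the scale of spacing the first column declined on both sides of the threshold. Its median was 35.0 for peaks with a neighbour within 5 kb, 29.4 at 25 to 50 kb and 22.3 at 100 to 150 kb, then 21.9 at 150 to 200 kb and 17.1 beyond 500 kb. The second column had 129, 129 and 110 in the same bins outside the rule, and 129 and 106 inside it, so that the 389 peaks at 150 to 200 kb (interval 115 to 139) stood level with the closest. Among the members, the smaller gap and strength had a Spearman correlation of −0.09, which is weak.

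**Figure D3:**
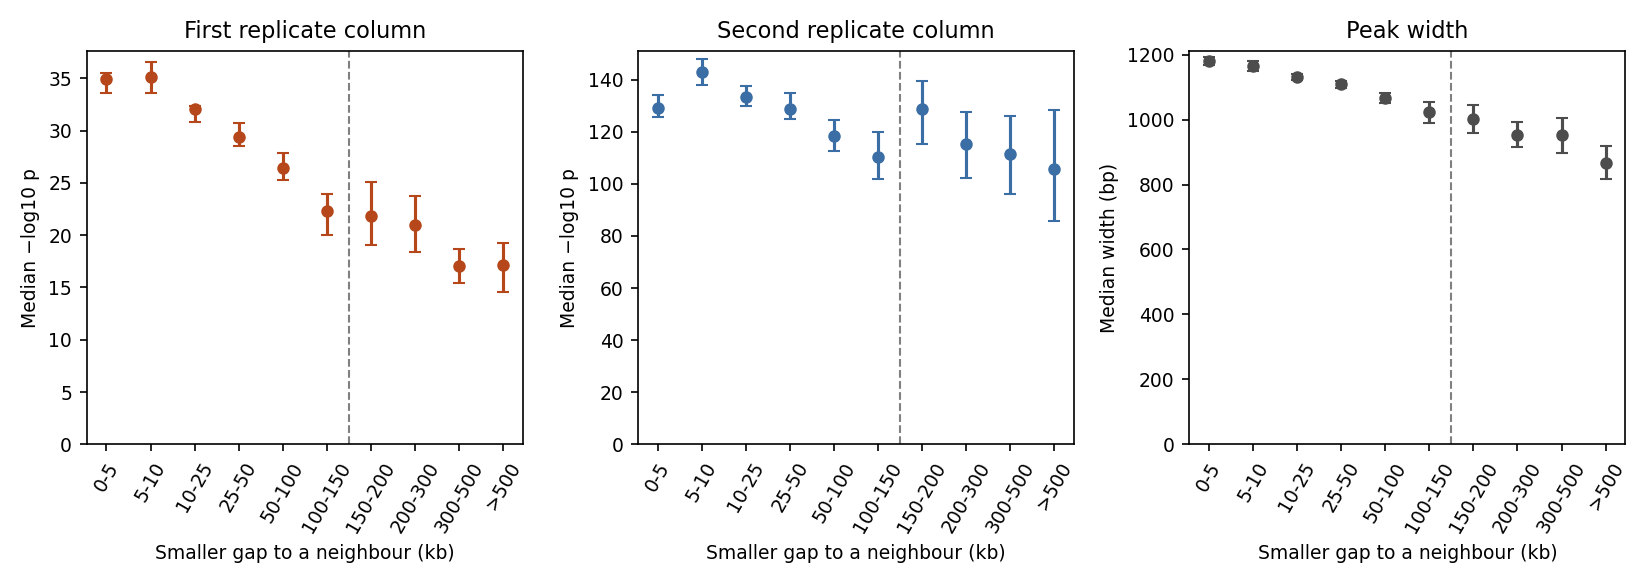
Points are medians over all autosomal peaks in bins of the smaller gap to a neighbour (kb), with exact 95% order-statistic intervals, for the −log10 p of each replicate column and for peak width in bp; bins right of the dashed line are the isolated peaks. The first column goes from 35.0 to 17.1 and the width from 1181 to 867 bp. The second column goes from 129 to 106, with 143 at 5 to 10 kb, 110 at 100 to 150 kb and 129 at 150 to 200 kb.

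Isolated peaks were narrower, with a median width of 960 bp (interval 939 to 983) against 1136 bp (1130 to 1142), on all 19 chromosomes. Weaker peaks are narrower throughout the list. Within the 4 groups by joint strength the widths were 719 against 832 bp in the weakest, 906 against 1020, 1097 against 1221, and 1272 against 1447 bp in the strongest. These groups are broad and not matched by column. The median log2 ratio of second to first column was 1.69 against 1.30 in the weakest and 1.93 against 1.81 in the strongest. The part of strength in the width was not tested. The widest member was again the peak in Pcdh7, at 6857 bp, followed by one in Cdk6 at 4133 bp (375 and 365 in the columns) and one at Trib1 at 3736 bp.

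The lower first column did not extend to gene ends. There isolated peaks had a median of 54.4 (interval 47.3 to 72.5), against 53.6 at other gene ends, and a width of 1300 against 1314 bp. In intergenic sequence the medians were 17.4 (16.97 to 18.4) against 28.1, inside protein-coding genes 18.8 (17.1 to 24.7) against 28.3, and at other genes 20.2 (17.1 to 27.8) against 30.9. In the second column isolated peaks were lower in all 4 classes, from 89.0 against 101 at gene ends (interval 61.2 to 115, which holds the other value) to 124 (114 to 134) against 156 (151 to 159) in intergenic sequence. Inside protein-coding genes the interval (93.0 to 122) also holds the value of other peaks (121), and at other genes the intervals overlap (109 to 152 and 142 to 161), so only the intergenic intervals lie apart.

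The order of the columns changed with the class. The median log2 ratio of second to first column was 2.67 (interval 2.57 to 2.75) at intergenic members and 0.27 (0.10 to 0.38) at members on gene ends. At other peaks these medians were 2.24 and 0.41. The first column was the higher at 37 of 106 members on gene ends (34.9%) but at only 4 of 525 intergenic members (0.762%, interval 0.208 to 1.94), against 28.8% and 2.14% of other peaks. The most tilted member, intergenic at chromosome 3, 19061973 to 19063165, had 8.01 and 253. Which labelled replicate each column holds is not given in the sources used here, and the part of depth in these differences was not tested.

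**Figure D4:**
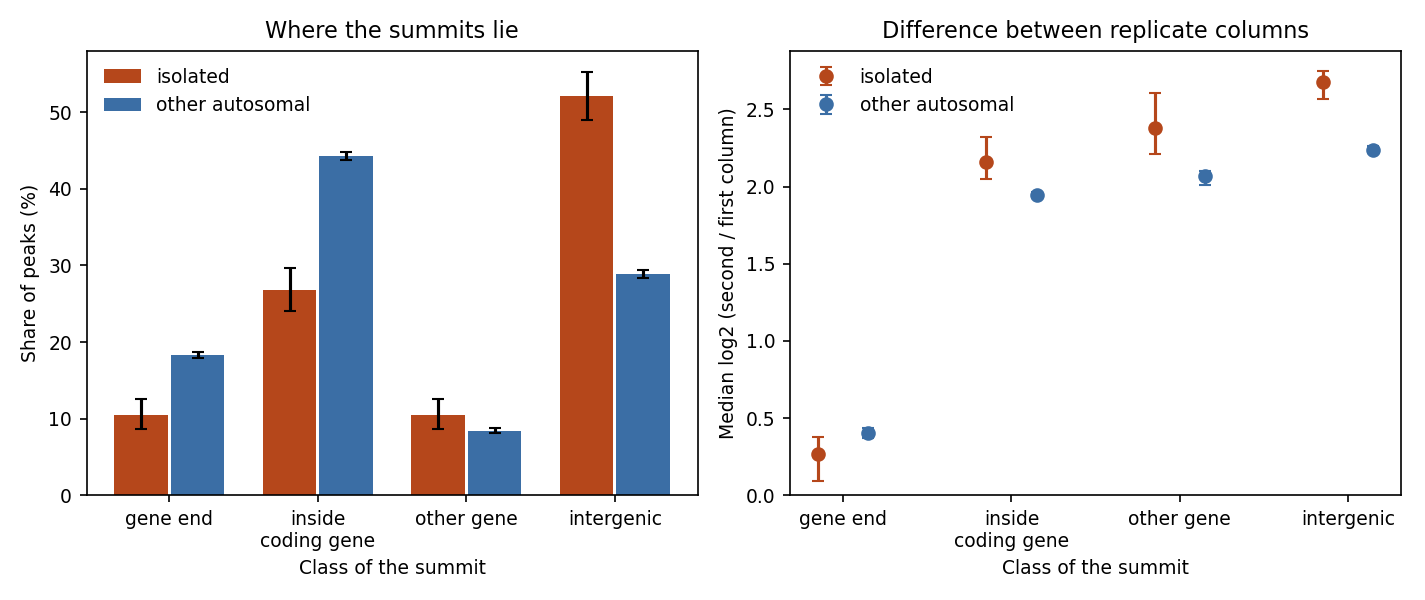
Left, bars give the share of summits (%) in each class for the 1007 isolated and the 32030 other autosomal peaks, with exact binomial 95% intervals. Right, points give the median log2 ratio of the second to the first replicate column with order-statistic intervals; isolated peaks lie at 0.27 on gene ends and 2.67 in intergenic sequence.

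Peaks with no protein-coding gene within 150 kb gave a closer comparison. The 416 isolated peaks of this kind had a joint median of 145 (interval 134 to 158), and the 864 others also 145 (132 to 156). Their columns were 18.4 and 124 against 20.3 and 120, and their widths 918 against 978 bp. Within gene-free surroundings isolated and other peaks were therefore not told apart by strength, and their intervals overlapped in both columns. The difference remained among peaks with a protein-coding gene within 150 kb. There the 591 isolated peaks had a joint median of 140 (130 to 152), and the 31166 others 170 (167 to 173). Their columns were 21.7 and 111 against 32.2 and 132, and their widths 992 against 1141 bp, with intervals apart in each. These peaks were not matched for the number of nearby genes. The split by nearby genes was added after the values were seen.

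The strongest members were spread over promoters, genes and deserts. The peak at an end of Lrfn2, which encodes a synaptic adhesion protein that binds PSD-95 (chromosome 17, 48930855 to 48933220), had 900 and 1280, the highest of all members in both columns and in strength (2180). It was the only peak in the 166002 bp of the gene, and its neighbours were 329 and 240 kb away. The Pcdh7 peak followed at 1499, and then a peak at the lncRNA gene Gm26901 (chromosome 1, 7396680 to 7398959) with 367 and 911. At the start of Sema3d, a secreted guidance cue of growing axons (chromosome 5, 12382847 to 12384571), the values were 519 and 731. An intergenic peak 500 kb from the homeobox gene Irx1 (chromosome 13, 71457621 to 71459138) had nearly even values of 570 and 600. It was stronger than every other intergenic member. The rest of the 10 strongest lay at Cpne8 (518 and 646), Trib2 (507 and 513), Gtf2h2, a gene of the general transcription factor TFIIH (283 and 688), inside App (557 and 424), and 98.9 kb from Slc7a12 (236 and 752). App and Pcdh7 were the 2 of these with the higher value in the first column.

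Further strong members at gene ends were those of Slc22a23 (428 and 496), Lsamp (409 and 498), Tox, an HMG-box factor gene (441 and 435), Rnd3 (351 and 443) and Kcnj6 (339 and 429). Their promoters, except that of Tox, are among those printed above. The weakest members, with strengths of 33.0 to 35.4, lay inside Adcy2 and Tinag and in intergenic sequence nearest to Grin2a, Rab28 and Dnah5, with 12.2 to 14.6 in the first column and 19.8 to 21.1 in the second.

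Genes were then asked for isolated summits inside them. Of 20665 autosomal protein-coding genes 311 held at least 1 isolated summit, which is 1.5%, and 1088 had 1 inside or within 150 kb (5.26%). The share followed length: 0.193% of genes under 30 kb, 4.72% at 100 to 300 kb, 28.2% at 300 kb to 1 Mb (135 of 478, interval 24.2 to 32.5) and 69.1% over 1 Mb (38 of 55, interval 55.2 to 80.9). Of the summits inside genes over 1 Mb 13.3% were isolated, against 0.476% of those inside genes under 30 kb. Members inside a gene had a median host length of 393227 bp, against 64900.5 bp for other peaks inside genes. A long gene has more room for a gap of 150 kb, so lists of genes are read beside their lengths.

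In the list of very long neuronal and fragile-site type genes, 37 of 63 held an isolated summit (58.7%, interval 45.6 to 71.0), against 1.5% of all genes. Among its 46 genes over 1 Mb the count was 32 (69.6%). These 46 are most of the 55 genes of that length, so the list cannot be compared with them. At 300 kb to 1 Mb it was 5 of 17 (29.4%, 10.3 to 56.0), against 28.2% of all genes of that length. Lsamp held 3 isolated summits among its 16, Pcdh15 3 of 10, Magi2, a synaptic scaffold gene, 3 of 8, and Astn2, which acts in the migration of neurons along glia, 3 of 5. In Sgcz and Dpyd, the latter the gene of a pyrimidine-degrading enzyme, all 3 summits were isolated. The 3 in Lsamp had strengths of 907 at its start, 62.9 and 406. Those in Magi2 had 76.0, 37.0 and 51.7, all low, and those in Astn2 303, 644 and 119. Lingo2 held 2, with strengths of 860 and 136. The former lay 1.2 kb inside a boundary of the gene, taken without regard to strand, and the latter lay deep inside. Cntnap2, Dlg2, Ptprd, Nrxn3 and Pde4d each held 1 isolated summit among 10, 11, 8, 13 and 17.

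Of 56 synaptic adhesion and organiser genes 20 held an isolated summit (35.7%, interval 23.4 to 49.6). Between 300 kb and 1 Mb it was 10 of 17 (58.8%, 32.9 to 81.6), against 28.2% of all genes of that length, and none of the 22 up to 100 kb held any. Cntn3 and Cntnap5a, of the contactin and contactin-associated families, held 2 each and no other peak. Cntn5, Cntnap4, Cntnap5b, Cntnap5c, Lrfn2, Lrfn5 and Lrrtm4 each had an isolated peak as their single summit. Cadm2, a synaptic cell adhesion molecule gene of 965502 bp, held 2 summits, 1 of them isolated (27.8 and 257).

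Of 63 axon guidance genes 12 held an isolated summit (19%, interval 10.2 to 30.9), 8 of them among the 12 genes of 300 kb to 1 Mb (66.7%, 34.9 to 90.1), against 28.2% of all genes of that length. The strongest were at Sema3d, inside Sema5a (306 and 621), inside Plxna4, a semaphorin receptor gene (176 and 488), and inside Sema6d (125 and 465). The ephrin receptor genes Epha5 and Ephb1 had weak ones, with strengths of 43.3 and 49.6. Of 42 glutamate and GABA receptor genes 10 held an isolated summit (23.8%, 12.1 to 39.5), of which 9 were among the 15 genes of 300 kb to 1 Mb (60%, 32.3 to 83.7), again beside 28.2%. Gabrb1, a GABA receptor subunit gene, had the strongest (186 and 174), then the kainate receptor gene Grik1 (39.4 and 266). Grm8 held 2, of 195 and 35.9. Gria1, Gria4, Grid1, Grin2a, Grm7 and Gabrg3 held a single isolated summit each, and these had strengths of 63.2 to 136. Of 32 cadherins and non-clustered protocadherins 8 held 1 or more (25%, 11.5 to 43.4): Pcdh7 and Pcdh15, and Cdh7, Cdh12, Cdh13, Cdh18, Pcdh9 and Pcdh18, where strengths were 60.7 to 149. By length, all 3 genes over 1 Mb held 1 or more, 3 of 6 at 300 kb to 1 Mb (50%, 11.8 to 88.2), 1 of 8 at 100 to 300 kb and 1 of 15 up to 100 kb, where the shares of all genes were 69.1%, 28.2%, 4.72% and 0.294%.

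Among 68 cortical and developmental transcription factor genes, mostly short, 6 held an isolated summit (8.82%, interval 3.31 to 18.2), against 1.5% of all genes. At 300 kb to 1 Mb it was 3 of 12 (25%, 5.49 to 57.2), against 28.2% of all genes of that length. It was 1 of 11 at 100 to 300 kb, against 4.72%, and 2 of 45 up to 100 kb (4.44%, 0.543 to 15.1), against 0.294%. Foxp1 and Foxp2, forkhead factors of neuronal differentiation, held 2 each, and in Foxp2 these were its only summits. The others were Etv1 (30.6 and 146), Pbx3, Ldb2 and Sall1. Of the genes that mark glia and blood vessels, cells a cortical culture can also hold, 1 of 35 held an isolated summit, the pericyte gene Rgs5 (8.41 and 58.7), and of 34 housekeeping genes 0 did (interval up to 10.3%). All 34 housekeeping genes are up to 100 kb long, and 0.294% of all genes of that length held an isolated summit. Of the glial and vascular genes 32 are of that length, and 1 of these held one (3.13%, interval 0.0791 to 16.2, which holds 0.294%). None of 1471 chemoreceptor genes held any (interval up to 0.250%, which treats clustered genes as independent). These genes are short, with a median length of 951 bp, and held only 6 CTCF summits of any kind. An isolated summit lay within 150 kb of 196 of them (13.3%), against 5.26% of all genes. Because these genes are clustered, that count rests on 24 isolated summits. Counted by summit, 2.38% of isolated summits (interval 1.53 to 3.53) lay within 150 kb of a chemoreceptor gene, against 1.84% of other summits (1.69 to 1.99), and these intervals overlap.

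**Figure D5:**
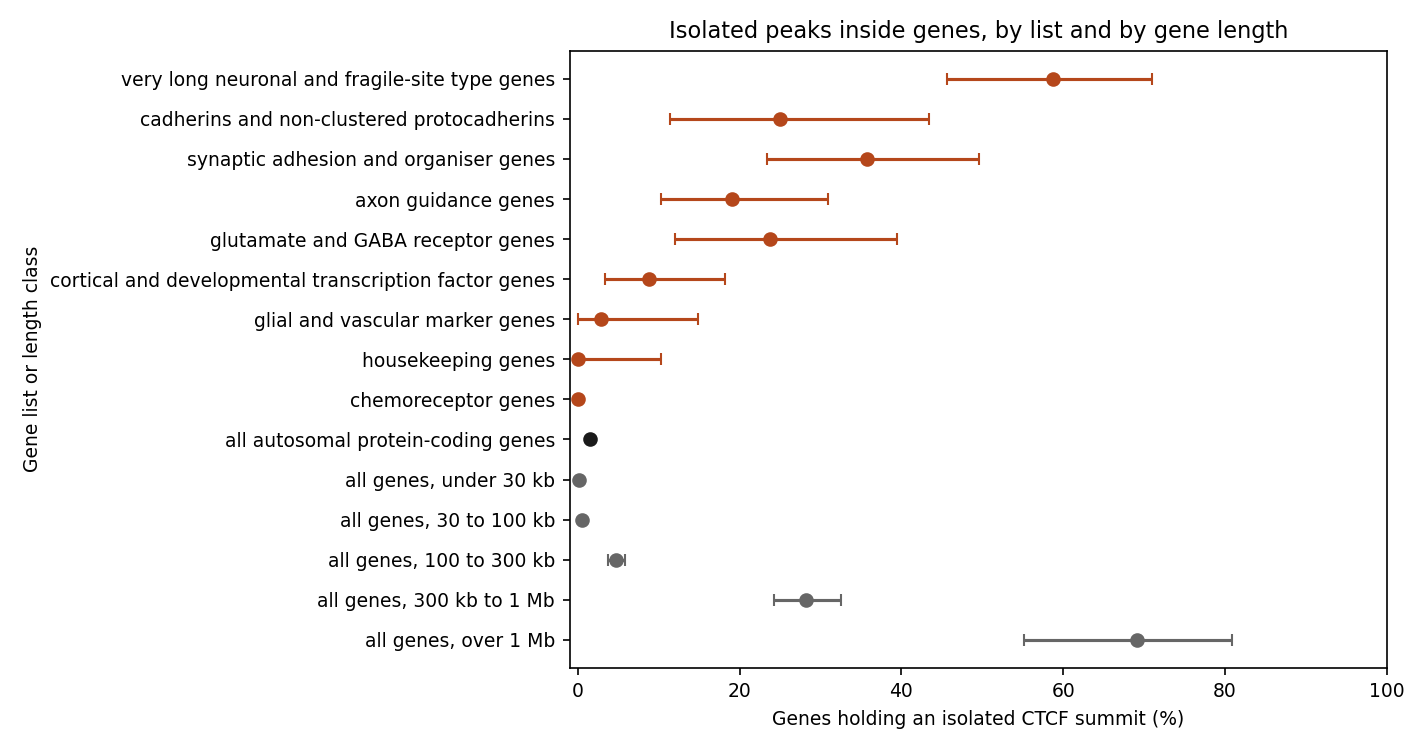
Points give the share of genes (%) that hold an isolated summit, with exact binomial 95% intervals: the 9 lists, all autosomal protein-coding genes, and all genes by length. The list of very long genes stands at 58.7%, and all genes go from 0.193% under 30 kb to 69.1% over 1 Mb.

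Some long genes had no CTCF peak other than isolated ones. Of 508 genes over 300 kb with a summit inside, every summit was isolated in 48 (9.45%), and 18 of these had 2 or more. Beside Sgcz, Dpyd, Lingo2, Cntnap5a, Grm8, Foxp2, Pcdh7 and Cntn3, these were Sntg1, Celf2, Mgat4c, Esrrg, Ryr2, Tafa1, Khdrbs2, Ptprk, Ppfia2 and Nr3c2. Celf2 and Khdrbs2 encode regulators of splicing, Ryr2 a calcium release channel, and Esrrg and Nr3c2 nuclear receptors.

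In deserts the genes that most often bordered isolated peaks were of several kinds, adhesion genes among them. Over the 416 members with no protein-coding gene within 150 kb, the protocadherin gene Pcdh20 was the nearest gene of 5, with strengths from 120 to 240 and distances from 186 to 1962 kb. Pik3c3 and Sorcs1, a sorting receptor gene, were nearest to 4 each. Among those nearest to 3 were Adgrl3, Cdh6, Cdh8 and Tenm2, adhesion genes, and Nova1 and Nr2f1, regulators of splicing and of cortical area identity, beside genes of other kinds such as Stim2, Fancl and Slc10a2. The same count was not made for the 864 other peaks with no protein-coding gene within 150 kb. It therefore does not show which genes are particular to isolated peaks. Over all 1007 members the nearest gene was a cadherin or non-clustered protocadherin in 35 (3.48%, interval 2.43 to 4.80), against 0.387% of other peaks, and a transcription factor of the cortical and developmental list in 34 (3.38%, 2.35 to 4.69), against 0.749%. The shares were also higher for the very long genes (7.75% against 1.34%), synaptic adhesion genes (5.56% against 0.712%), axon guidance genes (2.09% against 0.662%), receptor genes (1.69% against 0.287%) and chemoreceptor genes (2.09% against 0.384%). For housekeeping genes they were 0.199% and 0.194%, and for glial and vascular markers 0.0993% and 0.247%. The higher shares thus took in the chemoreceptors as well as the neuronal lists. They were not matched for gene length or for surroundings: 41.3% of members and 2.70% of other peaks had no protein-coding gene within 150 kb. A preference for any list was therefore not tested.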

How the data were processed

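CTCF binding was measured by chromatin immunoprecipitation and sequencing in 2 immunoprecipitated and 2 input samples. Per the labels' protocols, crosslinking used formaldehyde, and DNA was sheared to 200 to 500 bp. Per the submitters' processing notes, FastQC, Trimmomatic, BWA, SAMtools and MACS2 were used, with mm10 and GRCm38.p6 as builds. No source used here gives their settings. The deposited list has the 20-column layout of the IDR program. It holds the authors' −log10 p per replicate and −log10 IDR, a deposited score, and positions. The joint value is the sum of the replicate columns in all 33820 rows, and the IDR threshold was 0.05. Depth is unknown, and inputs enter only through peak calling.

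The summit was the start plus the summit offset. Genes came from the RefSeq table of GRCm38.p6, and strand and sequence from its promoter table. A summit was classed, in order, as within 1 kb of an end of a protein-coding gene, elsewhere inside one, within 1 kb of or inside another gene, or intergenic. Shares have exact Clopper-Pearson intervals and medians exact order-statistic intervals. The planned motif windows around summits became promoter windows, since no genome was used here. The members and lists were chosen with earlier results of these data known. Named regions followed a rule: the 10 strongest, 5 weakest, 10 most isolated, 5 widest, 10 strongest at gene ends, the extremes of the column ratio and 5 on either side of the threshold. Named genes were those at such regions, the 10 with the most isolated summits (ties by length), and list genes holding one. Runs, desert neighbours, genes with only isolated summits and the printed promoters were chosen after their values were seen. Listed symbols not among autosomal symbols included Tenm1, Hprt, Pgk1, Atp5f1 and Park2. Some items are not reported here. The code was tested on simulated peak lists. The code ran in Python 3.11.15 with scipy 1.17.1, pandas 2.3.3, numpy 2.4.6 and, for plots, matplotlib 3.10.9.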

Additional observations from a re-analysis of the deposited data

How the results depend on the processing

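No paired analysis was possible because the list is joint and its replicate columns are not tied to numbered samples. Directions below are isolated minus other peaks, and medians are compared as log2 ratios. With spacings of 100 and 200 kb there were 1853 and 618 isolated peaks. The strength ratio was −0.25. By each replicate column alone it was −0.71 and −0.17, and among peaks with no protein-coding gene within 150 kb −0.0078, where the second column turned to 0.058. Width, −0.24, became −0.28 at 200 kb, −0.20 at an IDR of 0.01, −0.14 among peaks above the median strength and −0.092 in gene-free surroundings. The IDR cap difference, −13.1 points, became −15.8 at 200 kb and −15.9 above the median strength. The share with no gene within 150 kb, 41.3%, became 30.4% and 47.6% at 100 and 200 kb, 32.1% at an IDR of 0.01 and 20.3% above the median strength. The intergenic difference, 23.2 points, became 17.6, 26.4, 16.6 and 11.4 in these settings and 28.5 with gene ends drawn at 5 kb. With 10 kb added to each gene 1.94% held an isolated summit, and with the 7-letter motif 76.4% of windows matched. Of 103 values under alternatives, 61 stayed close to the reported value (counts within 1.5 times, shares and medians within their 95% counting interval), 41 moved beyond that, and 1 changed sign. The 61 include values with the middle of the peak as position, a setting that again gave 1007 members. Motif windows of 50 bases around summits were not run, since they need the genome. Unknown depth limits all strengths.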

Other observations

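The X chromosome lies outside the rule, but the same spacing can be read there. Of 727 peaks on X with a neighbour on both sides, 83 were isolated (11.4%, exact Clopper-Pearson 95% interval 9.20 to 13.96), above the highest share of any autosome, 4.69% on chromosome 18. Isolated peaks on X had median values of 17.1 in the first column and 79.4 in the second, against 20.8 and 94.4 for the other peaks of X. Their median width was 848 bp, against 916 bp. The labels do not give the sex of the embryos, and X can be present in a single copy, so levels on X were not compared with those on autosomes.

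At the ends of the autosomes, 9 of the 38 first and last peaks that the rule leaves out had their only neighbour more than 150 kb away.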
